A study of Homo sapiens with 8 samples.

Results

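SREBF1, the genes of the liver X receptors and a fixed set of their sterol export and fatty acid synthesis targets were followed through 8 RNA-seq libraries of human multiple myeloma lines. The set holds 10 genes of the 24351 in the summed table: SREBF1, the receptors NR1H2 and NR1H3, the targets ABCA1, ABCG1 and MYLIP, and the lipid synthesis enzymes SCD, FASN, ACACA and FADS1. They were chosen by pathway with the FPKM of these libraries known, each manipulated library having been set against both controls of its line, so those ratios are given as a description with no test.

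The libraries come from H929 and ARP1, established lines grown from malignant plasma cells, and the labels give 1 library per line for each of 4 genotypes. These are CHEK1 overexpression, the control of overexpression, CHEK1 knockdown and the control of knockdown. CHEK1 encodes a checkpoint kinase that halts the cell cycle when DNA is damaged or replication stalls. The labels do not say by what construct or agent CHEK1 was raised or lowered, what the controls carried, or whether a line was 1 clone. Each value is FPKM, a fragment count divided by transcript length and by library size, as the authors deposited it per transcript and summed here per gene.

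SREBF1 encodes SREBP1, a transcription factor held in the endoplasmic reticulum membrane until it is escorted to the Golgi and cut, after which its released end enters the nucleus and switches on the genes of fatty acid synthesis and desaturation. The liver X receptors are nuclear receptors that sense oxidised cholesterol as heterodimers with the retinoid X receptors. Their textbook targets carry cholesterol out of the cell (ABCA1 and ABCG1), mark lipoprotein receptors for degradation (MYLIP, also called IDOL) and include SREBF1 itself.

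CHEK1 measured 107 FPKM in the H929 overexpression library, against 81.5 FPKM in the H929 control of overexpression, and 114 FPKM in the ARP1 overexpression library, against 78.2 FPKM in its control. It measured 84.8 FPKM in the H929 library labelled knockdown, against 80.7 FPKM in the control of knockdown, and 51.6 FPKM in the ARP1 library labelled knockdown, against 61.0 FPKM. The H929 value goes against its label, so both are called libraries labelled knockdown here. The plasma cell list was detected in full, with 10 of 10 markers past the filter and summed FPKM of 3621 to 6413 per library, although SLAMF7 was as low as 0.0778 FPKM. Summed levels of other cell types' markers stayed at or below 14.3 FPKM for T and NK cells, 1.01 for myeloid, 0.276 for adipose, 6.62 for liver and 7.26 for stroma. GNLY made up 14.2 FPKM of the highest T and NK sum, in the H929 overexpression library, and CD3D and NKG7 were listed at 0 throughout. The ARP1 library labelled knockdown stood apart: 1231 of 14905 genes were at least 2-fold from its own control, against 764 between the controls of that line, while 536 genes passed that fold in the H929 library labelled knockdown and 649 between the H929 controls. The overexpression libraries had 491 (ARP1) and 407 (H929) genes that far from their own control, fewer than lay between the controls of either line.

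Among the members ranked against SREBF1 below, ABCA1 and MYLIP followed its levels most closely. The stretches of 250 bases just upstream of annotated starts are shown for SREBF1, ABCA1, MYLIP and the desaturase gene SCD. They are from RefSeq on GRCh38.p14, read 5′ to 3′ on the gene's strand, at chr17:17836987-17837236 (minus strand), chr9:104928156-104928405 (minus strand), chr6:16128836-16129085 (plus strand) and chr10:100346983-100347232 (plus strand). Capitals mark a match on either strand to a liver X receptor element or a CCAAT box.
SREBF1: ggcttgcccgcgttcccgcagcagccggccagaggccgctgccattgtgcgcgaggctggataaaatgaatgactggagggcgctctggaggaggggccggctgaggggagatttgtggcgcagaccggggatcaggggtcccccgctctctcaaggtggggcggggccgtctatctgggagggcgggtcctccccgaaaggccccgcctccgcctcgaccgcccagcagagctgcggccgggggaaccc
ABCA1: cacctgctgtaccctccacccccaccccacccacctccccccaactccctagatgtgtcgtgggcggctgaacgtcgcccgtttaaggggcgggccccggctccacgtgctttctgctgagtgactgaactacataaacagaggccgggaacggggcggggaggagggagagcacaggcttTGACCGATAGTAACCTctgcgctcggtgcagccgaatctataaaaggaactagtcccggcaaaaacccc
MYLIP: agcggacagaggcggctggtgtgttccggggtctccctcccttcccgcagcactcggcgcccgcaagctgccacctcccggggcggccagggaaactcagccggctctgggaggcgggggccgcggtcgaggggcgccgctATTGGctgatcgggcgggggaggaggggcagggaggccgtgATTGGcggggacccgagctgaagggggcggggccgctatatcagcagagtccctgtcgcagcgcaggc
SCD: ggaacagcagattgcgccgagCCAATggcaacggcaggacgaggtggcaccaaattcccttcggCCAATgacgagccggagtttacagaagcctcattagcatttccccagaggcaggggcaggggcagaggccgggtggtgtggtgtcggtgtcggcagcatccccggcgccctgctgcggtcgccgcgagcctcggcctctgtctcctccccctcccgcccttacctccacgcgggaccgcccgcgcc
The liver X receptor element was searched as NGGTNANNNNNGGTNA, a direct repeat spaced by 4 bases. Of the 8 members with an entry (13 windows), ABCA1 alone held it, on the opposite strand with its first base 69 bases upstream of the start, and 0.53% of all 35116 windows did. The sterol regulatory element TCACNCCAC was in none of the members' windows and in 0.883% of all windows. CCAAT, the box bound by NF-Y, was in the windows of 4 members (MYLIP, SCD, NR1H3 and ACACA), beside 32% of all windows, and does not overlap the other motifs in them. These counts are of members and the shares are of windows. A member can have several windows, as ACACA does, so counts and shares are not on the same scale. A match describes letters only. The SREBF1 stretch shown lies at its upstream start and does not cover the starts 13384 and 17051 bases downstream, so it says nothing about elements there.

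SREBF1 (ENSG00000072310, chr17:17810399-17837002, minus strand, GRCh38) was above both controls of its line in all 4 manipulated libraries. In H929 it measured 92.5 FPKM in the overexpression library, 29.65 in the control of overexpression, 80.1 in the library labelled knockdown and 61.9 in the control of knockdown. The ARP1 values were 58.1 FPKM with overexpression, 22.6 in its control, 85.6 in the library labelled knockdown and 38.6 in its control. Against the nearest control, on the FPKM plus 1 scale, the H929 libraries were 1.49-fold (overexpression) and 1.29-fold (labelled knockdown) higher and the ARP1 libraries 1.49-fold and 2.19-fold higher. The control of overexpression was the lowest library for SREBF1 in either line, at −1.04 (H929) and −0.74 (ARP1) on the log2 scale relative to the control of knockdown, so a ratio to that control is larger than one to the other. Bulk RNA cannot tell fewer cells with a transcript from less transcript per cell. SREBF1 overlaps RAI1 on the opposite strand, and strand-specific counting is not stated. RAI1 ranged from 17.3 to 19.8 FPKM in H929 and from 8.55 to 10.8 in ARP1.

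**Figure D1:**
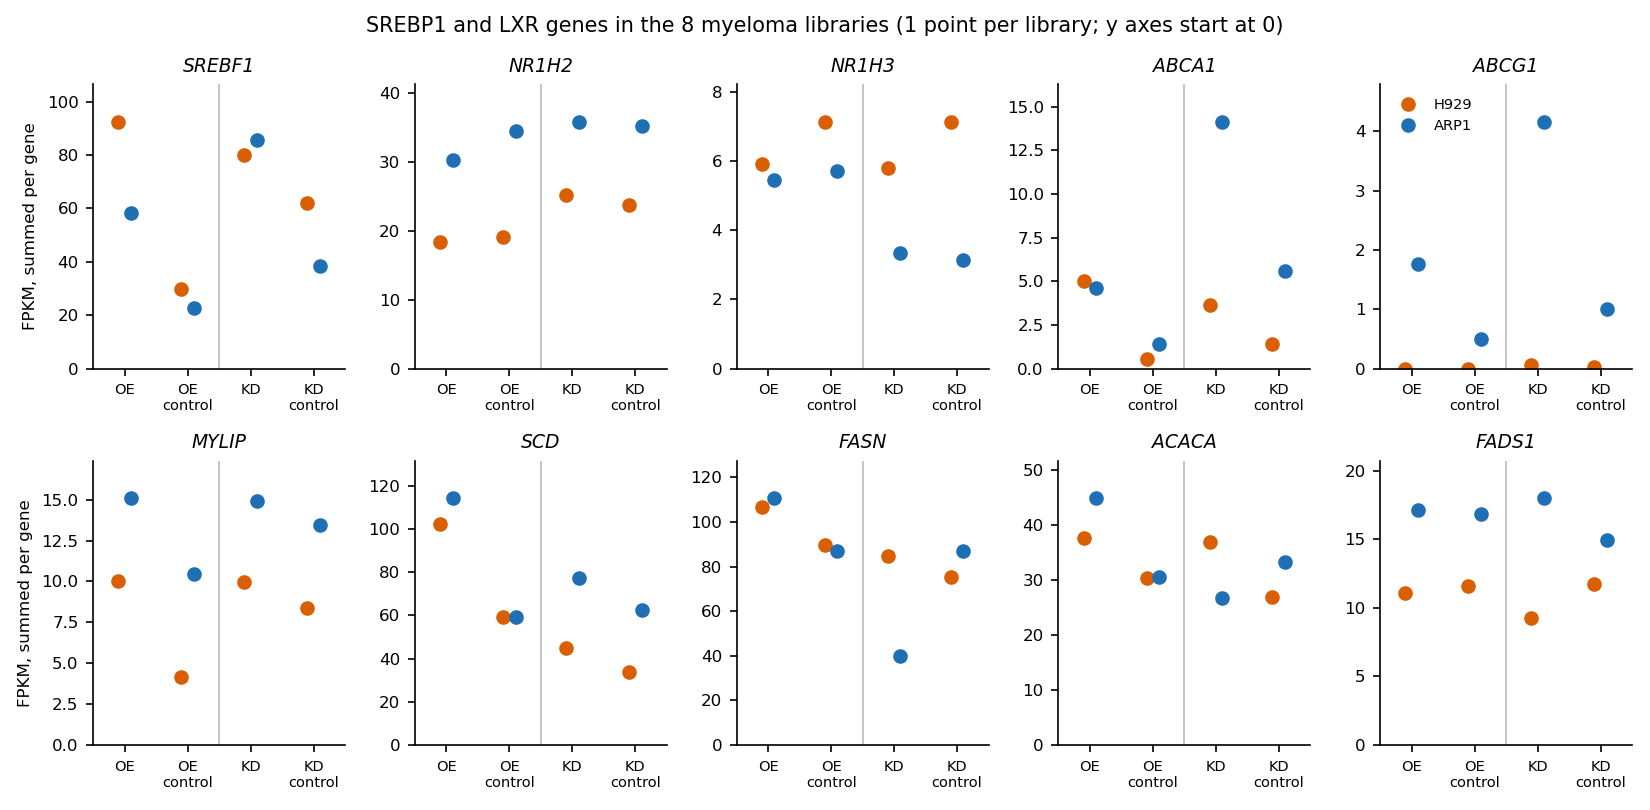
FPKM of the 10 genes in each library, 1 panel per gene with its own y axis starting at 0. Each point is 1 library, orange for H929 and blue for ARP1. OE is CHEK1 overexpression and KD is the library labelled CHEK1 knockdown, each left of its control. SREBF1 is lowest in the control of overexpression in both lines, at 29.65 FPKM in H929 and 22.6 in ARP1.

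The receptor genes varied less between libraries than SREBF1. NR1H2 (LXR beta, the widely expressed receptor, ENSG00000131408, chr19:50329653-50382982, plus strand) measured, in H929, 18.3 FPKM with overexpression, 19.1 in that control, 25.2 in the library labelled knockdown and 23.8 in its control. In ARP1 it measured 30.3 FPKM with overexpression, 34.6 in that control, 35.9 in the library labelled knockdown and 35.2 in its control. With overexpression it was below both controls in both lines, at 0.961 (H929) and 0.879 (ARP1) of the nearest control. Its main transcript, ENST00000253727, measured 9.08 FPKM in the H929 overexpression library against 16.9 and 17.7 in the H929 controls. In ARP1 that transcript measured 22.1 FPKM against 28.0 and 23.6. ENST00000593926 was uneven, at 5.70 FPKM with H929 overexpression, 0.0079 in that control and 7.25 in the ARP1 control of knockdown. The NR1H2 ratios depend on this transcript. NR1H3 (LXR alpha, strongest in liver, fat and macrophages, ENSG00000025434, chr11:47248300-47269032, plus strand) measured, in H929, 5.93 FPKM with overexpression, 7.15 in that control, 5.80 in the library labelled knockdown and 7.13 in its control. Its ARP1 values were 5.47 FPKM with overexpression, 5.71 in that control, 3.36 in the library labelled knockdown and 3.13 in its control. Both H929 manipulated libraries were below both controls for NR1H3, whereas both ARP1 ones lay between their controls. NR1H2 overlaps NAPSA on the opposite strand (14.6 to 56.9 FPKM), and NR1H3 overlaps ACP2 on the opposite strand (12.6 to 16.7 FPKM).

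Among the sterol export genes, ABCA1 showed the widest range. ABCA1, which loads cholesterol onto apolipoprotein A-I (ENSG00000165029, chr9:104781002-104928237, minus strand), measured 5.03 FPKM in the H929 overexpression library against 0.517 in its control, and 3.67 FPKM in the H929 library labelled knockdown against 1.43 in its control. In ARP1 it measured 4.62 FPKM with overexpression against 1.40 in the control, and 14.2 FPKM in the library labelled knockdown against 5.61. ABCA1 was therefore above both controls in 3 of the 4 manipulated libraries, by 2.48-fold (H929 overexpression), 1.92-fold (H929 labelled knockdown) and 2.29-fold (ARP1 labelled knockdown) of FPKM plus 1. The ARP1 overexpression library lay between its controls, higher by 1.23 on the log2 scale than its own and at −0.23 relative to the control of knockdown. An antisense gene within ABCA1, AL359182.1, was at 0 to 2.86 FPKM and highest in the ARP1 library labelled knockdown.

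ABCG1, which exports cholesterol to high-density lipoprotein (ENSG00000160179, chr21:42199689-42297244, plus strand), was near absent from H929. Its H929 levels were 0 FPKM with overexpression, 0 in the control of overexpression, 0.0637 in the library labelled knockdown and 0.0303 in the control of knockdown. The ARP1 levels were 1.77 FPKM with overexpression, 0.499 in its control, 4.16 in the library labelled knockdown and 0.997 in its control. Both ARP1 manipulated libraries were above both controls, by 1.39-fold and 2.59-fold of FPKM plus 1.

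MYLIP (ENSG00000007944, chr6:16129125-16148248, plus strand), the ubiquitin ligase for lipoprotein receptors, was above both controls in all 4 manipulated libraries by small margins. Its H929 levels were 10.0 FPKM with overexpression, 4.15 in that control, 9.94 in the library labelled knockdown and 8.36 in its control. The ARP1 levels were 15.1 FPKM with overexpression, 10.4 in that control, 14.9 in the library labelled knockdown and 13.4 in its control. The margins over the nearest control were 1.18-fold (overexpression) and 1.17-fold (labelled knockdown) in H929 and 1.115-fold and 1.101-fold in ARP1, so MYLIP shared with SREBF1 the low control of overexpression rather than a wide distance from both controls.

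With overexpression the enzymes SCD, FASN and ACACA stood above both controls in both lines, and FADS1 did not. SCD, the desaturase that makes oleate from stearate (ENSG00000099194, chr10:100347124-100364834, plus strand), measured 102 FPKM in the H929 overexpression library against 59.1 in its control, and 114 FPKM in the ARP1 overexpression library against 59.3 in its control. In the libraries labelled knockdown SCD was 45.1 FPKM in H929 against 34.05 in the control of knockdown, and 77.5 FPKM in ARP1 against 62.6. Overexpression thus stood 1.72-fold (H929) and 1.81-fold (ARP1) above the nearest control, while the H929 library labelled knockdown lay between its controls.

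FASN, the fatty acid synthase (ENSG00000169710, chr17:82078333-82098332, minus strand), was set apart in 1 library. It measured 107 FPKM in the H929 overexpression library, 89.5 in the control of overexpression, 84.6 in the library labelled knockdown and 75.5 in the control of knockdown. ARP1 had 111 FPKM with overexpression, 87.1 in its control, 39.7 in the library labelled knockdown and 86.8 in its control. The ARP1 library labelled knockdown was the lowest of the 8 for FASN, at 0.463 of its nearest control, and yet the highest of the ARP1 libraries for SREBF1, ABCA1 and ABCG1. The main FASN transcript (ENST00000306749) held the same order, with 32.8 FPKM in that library against 74.3 FPKM in its control.

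ACACA, acetyl-CoA carboxylase, which makes the malonyl-CoA that FASN uses (ENSG00000278540, chr17:37084988-37406818, minus strand), measured, in H929, 37.6 FPKM with overexpression, 30.4 in that control, 36.9 in the library labelled knockdown and 26.85 in its control. The ARP1 values were 44.9 FPKM with overexpression, 30.55 in that control, 26.7 in the library labelled knockdown and 33.3 in its control. Overexpression was above both controls in both lines, by 1.23-fold in H929 and 1.34-fold in ARP1. The library labelled knockdown was above both controls in H929 (1.21-fold) and below both in ARP1 (0.879 of the nearest).

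FADS1, a desaturase of polyunsaturated fatty acids (ENSG00000149485, chr11:61799625-61829318, minus strand), measured, in H929, 11.1 FPKM with overexpression, 11.6 in that control, 9.29 in the library labelled knockdown and 11.8 in its control. In ARP1 it measured 17.1 FPKM with overexpression, 16.8 in that control, 18.0 in the library labelled knockdown and 14.9 in its control. Manipulated libraries were below both controls in H929 and above both in ARP1, with nearest-control ratios of 0.816 to 1.07. With transcripts weighted by length the H929 overexpression library moved above both controls and the H929 library labelled knockdown moved between them, so its place beside the controls is not settled by these values. FADS1 overlaps FADS2 on the opposite strand, which was at 1.66 to 6.002 FPKM.

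Counted over the set, 5 of 10 members (SREBF1, MYLIP, SCD, FASN and ACACA) were above both controls in both lines with overexpression, beside 14.7% of the 14905 genes tested, and 1 (NR1H2) was below both in both, beside 16.5%. For the libraries labelled knockdown, 5 (SREBF1, ABCA1, ABCG1, MYLIP and NR1H2) were above both in both lines, beside 15.0% of genes, and 0 were below, beside 14.1%. ABCG1 enters that count with at most 0.0637 FPKM in H929. At least 2-fold above both controls were 1 member in the H929 overexpression library (ABCA1), 0 in the ARP1 overexpression library, 0 in the H929 library labelled knockdown and 3 in its ARP1 counterpart (SREBF1, ABCA1 and ABCG1). Of all genes, 0.604% were that far above both controls in the H929 and 0.476% in the ARP1 overexpression library, and 0.819% in the H929 and 2.64% in the ARP1 library labelled knockdown. FASN was the member at least 2-fold below both in the ARP1 library labelled knockdown, beside 1.62% of genes. At 1.5-fold SCD joined ABCA1 in the H929 overexpression library (1.85% of genes), SCD passed in the ARP1 overexpression library (1.57%) and ABCA1 in the H929 library labelled knockdown (2.42%). ABCA1 also passed 2-fold in that H929 library with TPM-like scaling. The members were chosen with these ratios known, and nothing is read from the counts.

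**Figure D2:**
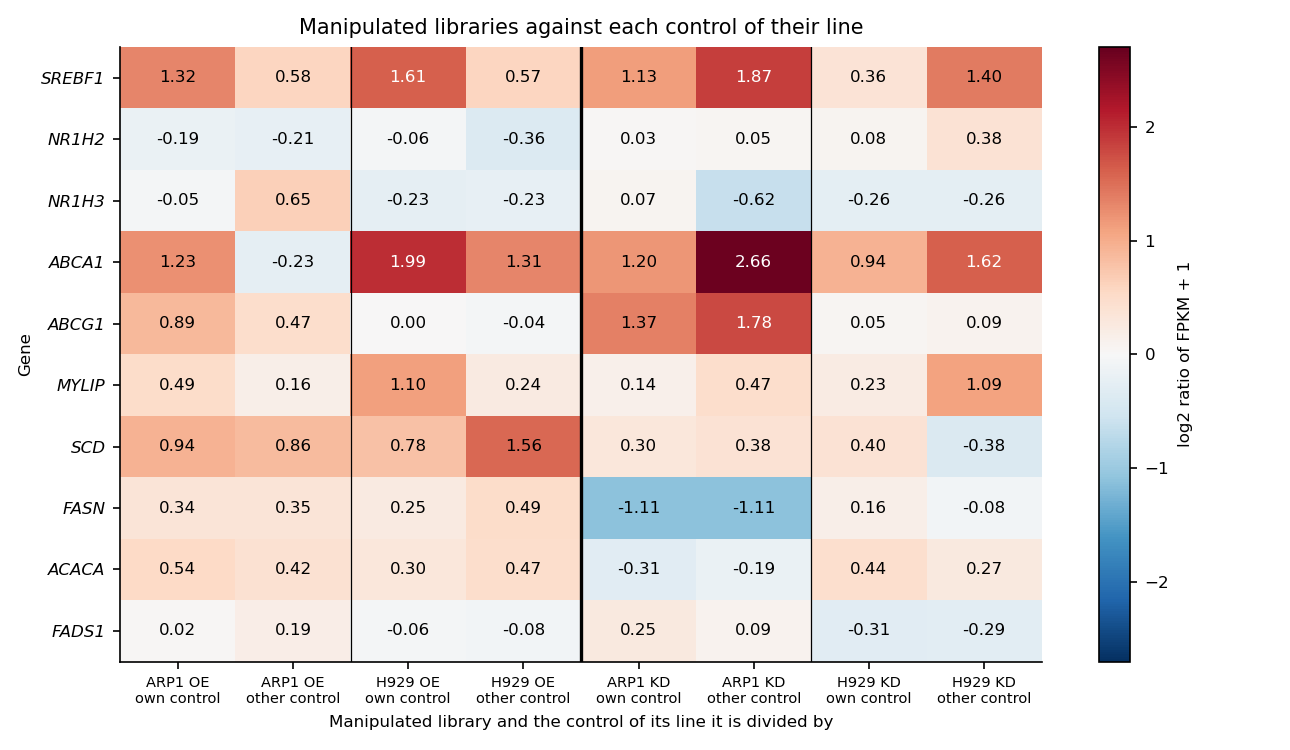
Log2 ratio of FPKM plus 1 for the 10 genes (rows) in each manipulated library divided by its own control and by the other control of its line (columns); red is higher in the manipulated library and blue lower. SREBF1 and MYLIP are positive in all 8 columns, and FASN is −1.11 against either control in the ARP1 library labelled knockdown.

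SREBF1 was measured as 7 transcripts, which start at different places along the gene. ENST00000261646 and ENST00000355815 start at the upstream end, ENST00000423161 starts 13384 bases downstream of it and ENST00000395757 starts 17051 bases downstream. ENST00000261646, called the main upstream transcript here, held the largest share in every library and measured, in H929, 43.5 FPKM with overexpression, 15.8 in that control, 40.2 in the library labelled knockdown and 23.4 in its control. In ARP1 it measured 29.2 FPKM with overexpression, 14.5 in that control, 48.3 in the library labelled knockdown and 19.7 in its control. It kept the order of the gene sum, with the control of overexpression lowest in both lines.

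The transcript that starts 17051 bases downstream, ENST00000395757, did not keep that order. Its H929 values were 27.0 FPKM with overexpression, 7.08 in that control, 20.7 in the library labelled knockdown and 23.05 in its control. In ARP1 it had 17.75 FPKM with overexpression, 4.02 in that control, 14.96 in the library labelled knockdown and 11.01 in its control. In the H929 library labelled knockdown it was slightly below its own control, at 0.903 of FPKM plus 1, while the main upstream transcript was 1.69-fold above. The transcripts from the upstream start made up 53.2% of SREBF1 with overexpression and 62.0% in that control in H929, and 58.7% in the library labelled knockdown and 47.9% in its control. In ARP1 the shares were 56.5% with overexpression against 69.7% in the control, and 71.3% in the library labelled knockdown against 59.6% in the control. Relative to its own control the upstream share was thus lower with overexpression and higher in the library labelled knockdown, in both lines, with 1 library at each point. Against both controls of the line, however, both H929 manipulated libraries lay between their controls. In ARP1 the overexpression library was below both controls and the library labelled knockdown above both. Shares between transcripts that share most exons are estimates of the authors' assembly, and come with no error.

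**Figure D3:**
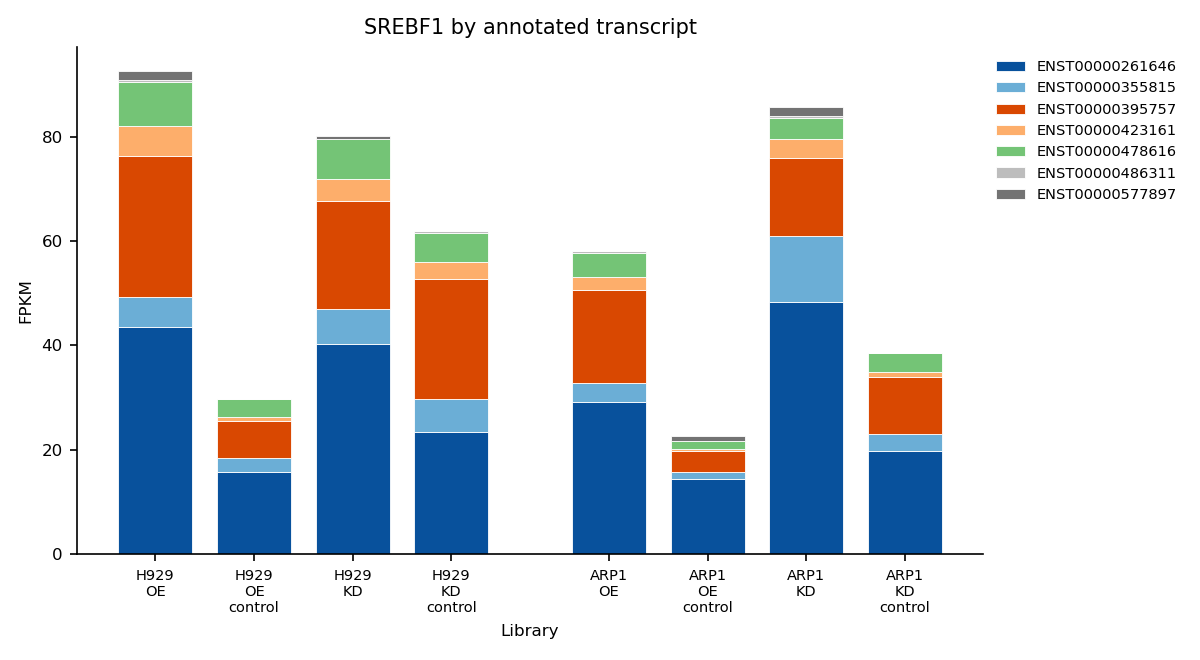
FPKM of the 7 SREBF1 transcripts stacked by library, H929 on the left and ARP1 on the right, with each manipulated library left of its control. ENST00000261646 (dark blue) and ENST00000355815 (light blue) start upstream and ENST00000395757 (dark orange) starts 17051 bases downstream. The upstream pair makes up 47.9% to 71.3% of a bar.

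The other genes of the pathway were taken from a list, of which 43 are reported and 32 of those passed the filter of at least 1 FPKM in at least 2 libraries. With overexpression, 4 of 32 (APOE, INSIG1, LPCAT3 and MBTPS1) were above both controls in both lines and 5 (ACSS2, DGAT1, DGAT2, PLTP and SCAP) below. For the libraries labelled knockdown, 5 (FADS2, MID1IP1, RXRB, SREBF2 and TTC39B) were above and 2 (PLTP and SCAP) below. These shares are close to the 14.1% to 16.5% of all genes, apart from the 2 of 32 below. In limma's test across the lines, with line as a block and Benjamini-Hochberg adjustment, 0 of 32 passed the threshold for either manipulation, and 2 of 32 had an unadjusted p under 0.05 for overexpression and 3 for knockdown. Over all genes that test called 1 gene for overexpression (0.00671% of those tested) and 2 for knockdown (0.0134%), with 663 and 1362 at an unadjusted p under 0.05.

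In the H929 library labelled knockdown 16 of the 32 pathway genes were above both controls (33.1% of all genes) and 5 below (29.1%), and in the ARP1 one 9 were above (35.8%) and 10 below (39.4%). Among those above in ARP1 were TTC39B, a liver X receptor target, and MID1IP1, which stimulates acetyl-CoA carboxylase, at 1.47-fold of the nearest control each. In the H929 library labelled knockdown they were also above both controls, by 1.14-fold (TTC39B) and 1.57-fold (MID1IP1) of the nearest. LRP8 was the 1 of 32 at least 2-fold below both controls in the ARP1 library, beside 1.62% of all genes. These genes and ACLY were chosen for mention after values were seen. LRP8, a lipoprotein receptor that the MYLIP product marks for degradation, measured 44.75 FPKM in the H929 library labelled knockdown against 41.3 in its control, and 5.23 FPKM in the ARP1 one against 17.0 in its control. ACLY, which supplies cytosolic acetyl-CoA, measured 146 FPKM in the H929 library against 136 in its control, and 89.7 FPKM in the ARP1 library against 147 in its control. The ARP1 library had the most genes far from its control of the 4 manipulated ones, and the part of this in the values of LRP8, ACLY and FASN was not tested.

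**Figure D4:**
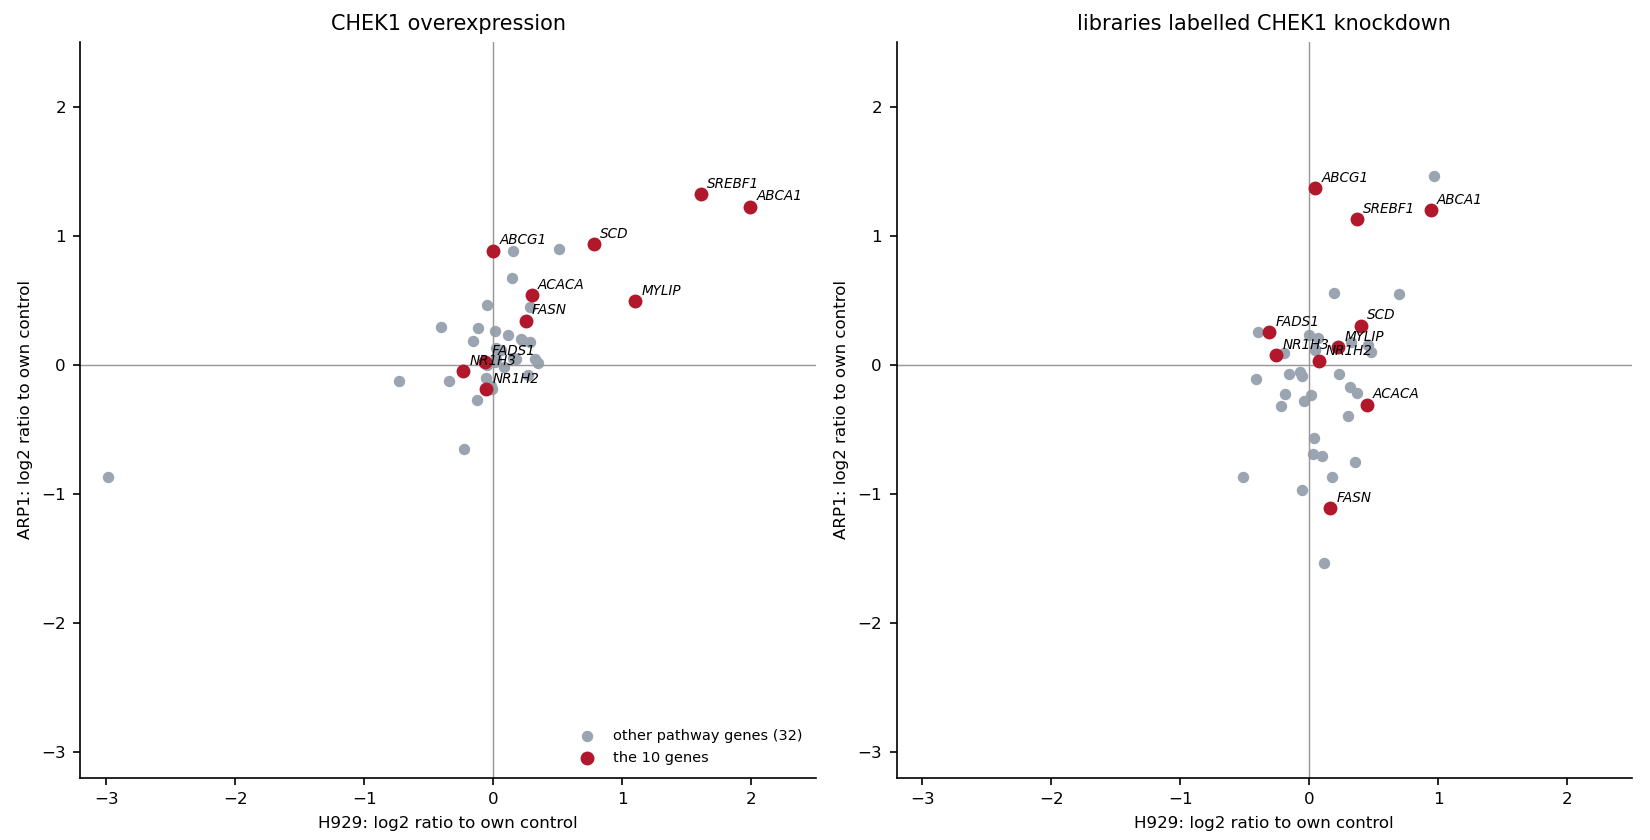
Log2 ratio of FPKM plus 1 to the own control in H929 (x axis) and ARP1 (y axis), for overexpression (left) and the libraries labelled knockdown (right). Red points are the 10 genes and grey points the 32 other pathway genes. SREBF1 and ABCA1 lie in the upper right of both panels, and FASN is at 0.16 in H929 and −1.11 in ARP1 in the right panel.

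The rule that chose the genes set manipulated libraries against controls and not H929 against ARP1, so limma's test of the lines is given for the members, although the values of all 8 libraries were known when they were chosen. Limma was fitted to all 14905 genes with genotype as a block, so each line is represented by 4 libraries that differ in genotype. With genotype as a block, the p-values rest on how far the line difference varied over the 4 genotypes, not on the SD among a line's libraries. Nothing in the labels says that the libraries came from separate cultures. ABCG1 passed the filter through 2 ARP1 libraries alone, so it had to be lower in H929 and is left out of the counts. Of the 9 other members, 0 were higher and 3 (NR1H2, MYLIP and FADS1) lower in H929 (limma adjusted p under 0.05), beside 13.4% of all genes higher and 13.7% lower. An unadjusted p under 0.05 was found for 7 of the 9, beside 41.1% of all genes, and their median log2 fold change was −0.45, beside −0.001 over all genes.

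NR1H2 was lower in H929, at 21.6 ± 3.39 FPKM in H929 and 34.0 ± 2.55 FPKM in ARP1 (SD, n = 4 each; log2 fold change −0.64, SE 0.10, limma adjusted p = 0.00676). The lines did not overlap for NR1H2, and the call held in 17 of 17 alternatives. MYLIP averaged 8.12 ± 2.76 FPKM in H929 and 13.5 ± 2.15 FPKM in ARP1 (log2 fold change −0.72, SE 0.14, limma adjusted p = 0.0132). The MYLIP call was lost without the ARP1 control of overexpression (limma adjusted p = 0.0508) and with genotype left out (0.0645). FADS1 averaged 10.9 ± 1.14 FPKM in H929 and 16.7 ± 1.29 FPKM in ARP1 (log2 fold change −0.57, SE 0.13, limma adjusted p = 0.0186). Its lines did not overlap, but the call was lost without the overexpression library or the control of overexpression of either line (limma adjusted p = 0.0643 to 0.0668).

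ABCG1 had a log2 fold change of −1.32 (SE 0.31, limma adjusted p = 0.0224), and the 4 H929 libraries lay below the 4 ARP1 ones. The call is not counted as support, for the reason given, and it was lost without the control of knockdown of either line, without the H929 overexpression library and with no filter (limma adjusted p = 0.0511 to 0.0729).

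SREBF1 averaged 66.0 ± 27.3 FPKM in H929 and 51.2 ± 27.1 FPKM in ARP1, with a log2 fold change of 0.40 (limma adjusted p = 0.0834). It passed the threshold once the library labelled knockdown of either line was left out (log2 fold change 0.57, limma adjusted p = 0.0101 and 0.0102). That genotype was the 1 of 4 in which H929 was below ARP1 for SREBF1. ABCA1 had −0.93 (limma adjusted p = 0.0616), which passed under 6 alternatives, among them leaving out the overexpression library of either line (−1.27, limma adjusted p = 0.0264 and 0.0265). NR1H3 had 0.50 and SCD −0.45 (limma adjusted p = 0.0753 and 0.0872). FASN, at 0.22 (limma adjusted p = 0.482), and ACACA, at −0.03 (limma adjusted p = 0.91), did not pass the threshold and changed sign when libraries were left out, FASN to −0.07 without the library labelled knockdown of either line. ACACA became 0.048 without the overexpression library and 0.065 without the control of knockdown of either line.

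In the pathway list, 10 of 32 genes were higher in H929 and 3 lower by the same test, beside 13.4% and 13.7% of all genes. These 13 calls became 4 to 9 with 1 library left out (4 without the control of knockdown of either line, 5 without the control of overexpression, 7 without the overexpression library, and 8 or 9 without the library labelled knockdown) and 4 with no filter, so the tallies by class below rest on all 8 libraries. The retinoid X receptor gene RXRA was the receptor partner called, higher in H929, with 2 of the 3 listed partners tested. Of 11 enzymes of fatty acid synthesis, desaturation and elongation, 5 were higher (ACACB, ACSS2, SCD5, ELOVL6 and FADS3) and 1 lower (ELOVL5), and of 5 triglyceride synthesis genes 2 were higher (AGPAT2 and DGAT1) and 1 lower (LPIN1). SREBF2, which encodes the cholesterol-regulating SREBP2, was the 1 of 6 SREBP processing genes called, and lower.

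SCD5, a second stearoyl-CoA desaturase, averaged 11.9 ± 2.85 FPKM in H929 and 4.44 ± 1.71 FPKM in ARP1 (SD, n = 4 each; log2 fold change 1.27, SE 0.145, limma adjusted p = 0.00251), while SCD itself was not called. ACSS2, which makes acetyl-CoA from acetate, averaged 5.76 ± 1.10 FPKM in H929 and 2.31 ± 0.340 FPKM in ARP1 (log2 fold change 1.02, limma adjusted p = 0.00554). The lines did not overlap for SCD5 and ACSS2, and their calls held in 17 of 17 alternatives. LRP8 averaged 41.9 ± 1.94 FPKM in H929 and 16.3 ± 7.70 FPKM in ARP1 (log2 fold change 1.47, limma adjusted p = 0.0197), a call lost without the control of knockdown of either line and with no filter (0.0544 to 0.068). APOC1 averaged 9.39 ± 10.15 FPKM in H929 and 2.26 ± 1.45 FPKM in ARP1 (log2 fold change 1.32, limma adjusted p = 0.0269). APOC1 overlapped between the lines and was lost in 7 alternatives, among them leaving out either control in either line (0.0625 to 0.0871). With transcripts under 300 nt left out its log2 fold change was 0.57 (0.113).

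**Figure D5:**
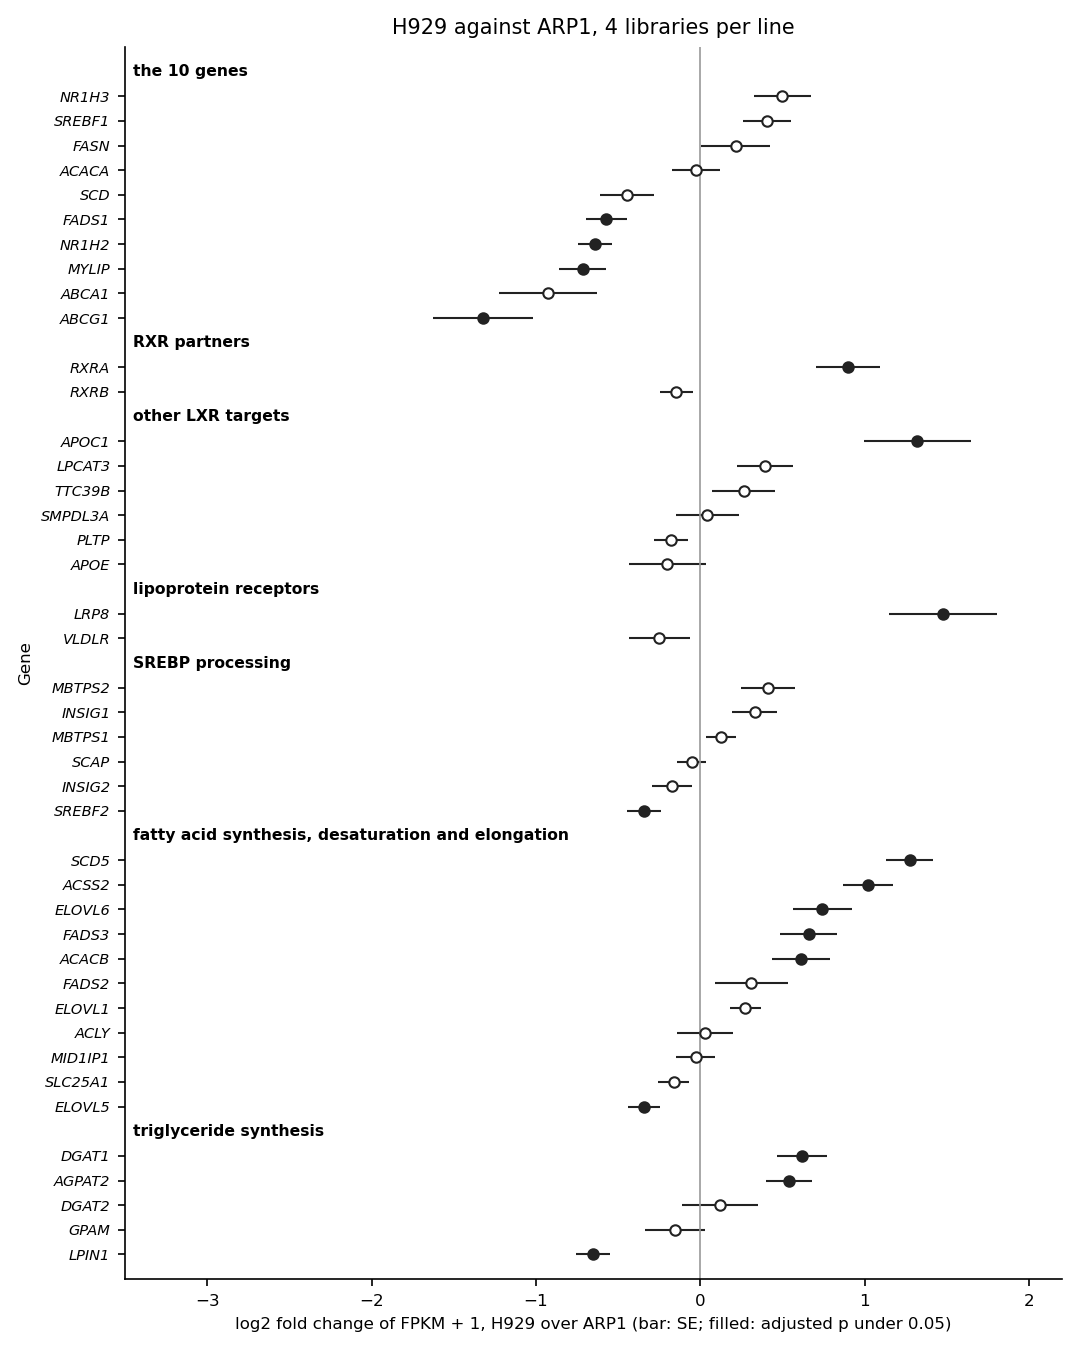
Log2 fold change of FPKM plus 1, H929 over ARP1, from limma with 4 libraries per line, for the 10 genes (top) and the 32 other pathway genes by class. Bars are 1 SE, and filled points passed an adjusted p of 0.05. FADS1, NR1H2 and MYLIP are filled and below 0; ABCG1 is also filled, but passed the filter through 2 ARP1 libraries alone.

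The genes whose levels most resembled SREBF1 were found by Pearson's correlation of log2 FPKM plus 1, centred within each line, over the 8 libraries among 10177 protein-coding genes. The 5 nearest were CLUAP1 (r = 0.984), YEATS4 (0.965), TMEM19 (0.948), XRCC2 (0.946) and ACOT13 (0.937). ABCA1 was 6th with r = 0.934 and MYLIP 36th with 0.879, whereas SCD had 0.366, ACACA 0.215, NR1H2 0.127, FADS1 −0.04, FASN −0.35 and NR1H3 −0.51. ABCG1 was not ranked, because its mean was under the 2 FPKM asked for. CLUAP1, a gene of ciliary transport, measured, in H929, 5.46 FPKM with overexpression, 1.7 in that control, 4.002 in the library labelled knockdown and 3.06 in its control. In ARP1 it measured 4.50 FPKM with overexpression, 2.18 in that control, 6.61 in the library labelled knockdown and 3.52 in its control. For ABCA1 the 5 nearest were CCZ1B (0.971), TMEM135 (0.96), CLUAP1 (0.96), PLPP6 (0.958) and TRAF6 (0.954). The values of the nearest genes describe 8 libraries, taken as the highest of 10177 correlations, and carry no p. The members were chosen with the levels in these libraries known, so nothing is read from their ranks.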

How the data were processed

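RNA of 8 libraries was measured, and, per the labels' protocols, total RNA (integrity number over 7.0) went through poly(A) selection and was sequenced as paired ends from inserts of about 300 bp. The authors deposited FPKM per transcript, under a name that calls the values means. Bowtie 0.12.2, HISAT2 2.0 and StringTie 1.3.0 and the build mm8 are named per the submitters' processing notes. The identifiers are human, and the human build used by the authors is not stated. Read depth is unknown, so no counting error is given and precision rests on how far libraries differ. The FPKM of a library added up to between 631871 and 693299.

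Transcripts were joined to GENCODE 29 on GRCh38 (87707 of 88209 matched) and FPKM summed per gene. The filter asked for 1 FPKM or more in 2 or more libraries, which 14905 genes met. Limma 3.58.1 (R 4.3.3) was fitted to log2(FPKM + 1) of all 8 libraries, with genotype and line as terms (3 residual and 3.7 prior degrees of freedom), variances with a trend, two-sided tests and Benjamini-Hochberg adjustment at 0.05. The line is a block because both lines hold every genotype once. A log2 fold change on this scale understates the change of low genes. The fit was run on simulated data with independent noise and a fixed shift, which checks the code and does not measure its power or error rate in these libraries.

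The members and lists were chosen with earlier results of these data known. Pathway genes were given with their own fold change and p where called in H929 against ARP1 with an absolute log2 fold change of at least 1, or at least 1.5-fold past both controls in both lines, which none met. Other pathway genes are named as members of a count or, where so stated, after their values were seen. A pair of listed genes is not reported here or counted among the pathway genes. For SREBF1 and ABCA1 the 5 most correlated protein-coding genes with a mean of at least 2 FPKM were named. Alternatives changed the pseudocount, filter, scaling, transcript sums, blocks, controls and libraries.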

Additional observations from a re-analysis of the deposited data

Results flagged for a closer look

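Several genes lay on one side of both controls in H929 and on the other side in ARP1, with 1 library at each point, and none of these differences between the lines was tested. All values are log2 ratios of FPKM plus 1 to the nearest control. Among the members in the libraries labelled knockdown, ACACA was at 0.27 in H929 and −0.186 in ARP1, and FADS1 at −0.294 in H929 and 0.092 in ARP1. With overexpression FADS1 was at −0.062 in H929 and 0.024 in ARP1. Neither FADS1 difference held with transcripts weighted by length. In H929 it then moved above both controls with overexpression and between them in the library labelled knockdown.

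Among the other pathway genes in the libraries labelled knockdown, the lipoprotein receptor LRP8 was at 0.112 in H929 and −1.534 in ARP1. ACLY was at 0.095 in H929 and −0.669 in ARP1, and LPCAT3 at 0.161 in H929 and −0.426 in ARP1. DGAT1 was at 0.028 in H929 and −0.483 in ARP1, and AGPAT2 at 0.029 in H929 and −0.213 in ARP1. RXRA was at 0.227 in H929 and −0.074 in ARP1, and LPIN1 at 0.011 in H929 and −0.012 in ARP1. The opposite order held for APOE, at −0.401 in H929 and 0.254 in ARP1, and for GPAM, at −0.006 in H929 and 0.227 in ARP1. With overexpression ACACB was at −0.406 in H929 and 0.291 in ARP1.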

How the results depend on the processing

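In H929 against ARP1 limma called 4035 of 14905 genes (13.4% higher and 13.7% lower in H929), 13 other pathway genes and 4 members. These members include ABCG1, which had to be lower in H929, and without it 3 of 9 were called. Leaving out 1 library gave 1948 to 4136 genes, 2 to 5 members (ABCG1 included where it was called) and 4 to 9 other pathway genes, and no filter gave 4 other pathway genes. No call of a member reversed. FASN, not called, ranged from −0.071 (without either library labelled knockdown) to 0.353 with 1 library left out, and ACACA, not called, became 0.046 with TPM-like scaling, 0.048 without either overexpression library and −0.186 to 0.065 over the libraries left out (0.065 without either control of knockdown). ABCG1 had no value with FPKM of at least 5 or without the ARP1 overexpression or labelled-knockdown library, where it failed the filter. For overexpression against its control, 1 gene was called, against 2 with no filter, 0 without transcripts under 300 nt, 0 among protein-coding genes, 0 with the other control and 0 to 3 with 1 library left out. For the libraries labelled knockdown, 2 genes were called, against 1 with a pseudocount of 0.1, 1 with TPM-like scaling, 0 at FPKM of at least 5, 0 without short transcripts, 0 among protein-coding genes and 0 to 1005 with 1 library left out (1005 without the H929 library labelled knockdown, which then also called 2 other pathway genes, against 0 to 2 over the libraries left out). With no replicate block, the line left out, the count was 1 for overexpression and 0 for knockdown. At 1.5-fold in place of 2-fold, members above both controls numbered 2 in place of 1 in the H929 overexpression library, 1 in place of 0 in the ARP1 overexpression library and 1 in place of 0 in the H929 library labelled knockdown, where TPM-like scaling also gave 1. With transcripts weighted by length, FADS1 joined the members above both controls in both lines with overexpression, 6 in place of 5. Depth is unknown, and levels near 0, such as ABCG1 in H929, carry no counting error.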
